A study of Drosophila melanogaster with 2 samples.

Results

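The translation initiation factor (eIF) and elongation factor (eEF) genes of Drosophila melanogaster were examined for binding by Ets98B, a member of the ETS family of transcription factors. They were chosen by gene name, as all protein-coding genes whose symbol begins with eIF or eEF in the Ensembl release 115 annotation. This gave 52 genes, 44 of them eIF and 8 eEF, of 13968 protein-coding genes on the 7 main chromosome arms. A gene was counted as bound if the summit of a peak lay within 500 bp of the transcription start site (TSS) of any of its transcripts, or elsewhere in the gene body.

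The data came from chromatin immunoprecipitation followed by sequencing (ChIP-seq) of whole pupae aged 2 days. The animals were of the strain Ets98B-GFP and carried an insertion that the labels describe as targeting Ets98B. It gave Ets98B-eGFP, that is Ets98B joined to the green fluorescent protein, which an anti-GFP antibody recovered. Both biological replicates belonged to 1 group, and what drives the fusion was not stated in the labels. No other condition was sampled and no control was analysed here, so binding could be described but not compared between conditions. In whole animals, strong binding in few cells and weak binding in many cells cannot be told apart.

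Initiation factors bring the small ribosomal subunit to the messenger RNA, find the start codon and join the large subunit. Elongation factors then deliver aminoacyl-tRNAs and move the ribosome along the message. Many of their genes, though not every copy, are active in nearly all cells. In flies many such housekeeping promoters carry the binding words of the promoter factors DREF and M1BP, or a polypyrimidine initiator known as TCT.

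The conservative list, which the authors made from both replicates, held 7157 peaks. Replicate 1 had 5850 thresholded peaks on the main arms and replicate 2 had 7963. Peak strength was taken from the authors' signal column, and reproducibility from their score, which reaches 1000 and was at least 830 in the thresholded lists. Signal values of different lists are not on 1 scale, and no read depth could be had from the lists.

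Conservative peaks stood at a TSS of 15 of the 52 factor genes (28.8%, 95% Wilson interval 18.3 to 42.3), against 21.4% of the 13916 other protein-coding genes. In replicate 1 alone 13 factor genes had a thresholded peak at a TSS (25%, against 17.8% of other genes). In replicate 2 alone there were 14 (26.9%, against 23.8% of other genes). The mean of the replicates was 26.0% ± 1.36 for factor genes and 20.8% ± 4.25 for other genes (SD, n = 2). The share of factor genes was the higher in each list, but the background share lay inside the Wilson interval of the factor genes in all 3 lists. Intervals cover the counting of genes only.

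With gene bodies included, 17 factor genes had a conservative peak (32.7%, interval 21.5 to 46.2), against 26.3% of other genes. In replicate 1 the share was 28.8% of factor genes and 23.2% of other genes. In replicate 2 it was 32.7% of factor genes and 27.7% of other genes.

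A conservative TSS peak was found at 5 of 8 elongation factor genes (62.5%, interval 30.6 to 86.3) and at 10 of 44 initiation factor genes (22.7%, interval 12.8 to 37.0). The gap was smaller in the replicates, with 50% against 20.5% in replicate 1 and 37.5% against 25% in replicate 2. The intervals overlap, and the difference was not tested. Of the most alike gene sets, 54.3% of 92 cytosolic ribosomal protein genes, 26.0% of 73 mitochondrial ribosomal protein genes and 28.6% of 35 aminoacyl-tRNA synthetase genes had a conservative TSS peak.

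**Figure D1:**
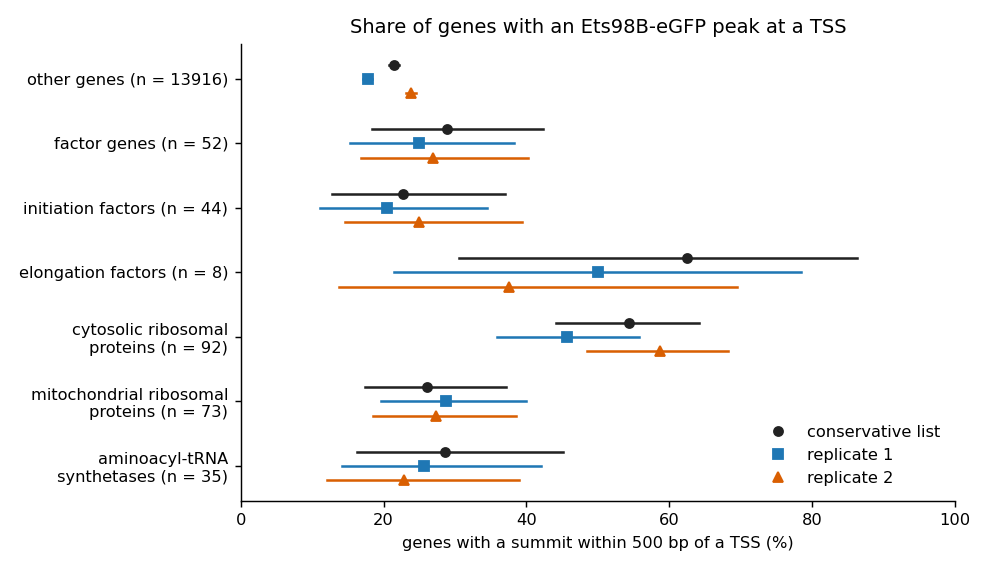
Share of genes with a peak summit within 500 bp of a TSS, in percent, for the factor genes, their initiation and elongation factor subsets, other protein-coding genes and 3 related gene sets. Points are the share in the conservative list and in each replicate's thresholded list, and bars are 95% Wilson intervals; the factor genes sit at 25% to 28.8% and the other genes at 17.8% to 23.8%.

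Gene structure moved with these shares. Among genes with a single TSS, 15.6% of 32 factor genes and 15.4% of other genes had a conservative TSS peak. The same stratum gave 9.38% against 12.9% in replicate 1 and 12.5% against 17.0% in replicate 2, so that factor genes had the lower share there. Among genes with 2 TSSs the shares were 52.9% of 17 factor genes and 31.0% of other genes, with 52.9% against 25.9% in replicate 1 and 47.1% against 35.6% in replicate 2. With 3 or more TSSs, 1 of 3 factor genes had a peak, against 54.6% of other genes. Factor genes were slightly shorter than other genes, with a median length of 1955 bp against 2165.5 bp, and 61.5% of them had 1 TSS, against 73.6%. Genes under 2000 bp had a peak in 25% of 28 factor genes and 12.3% of other genes, whereas over 5000 bp it was 25% of 8 factor genes and 36.4%. Weighting other genes to the factor genes' mix of TSS number left a difference of 6.11 percentage points in the conservative list, 6.06 in replicate 1 and 1.42 in replicate 2.

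A start of another protein-coding gene facing away within 500 bp upstream was found at 20 factor genes. Of these 6 had a TSS peak (30%), against 35.2% of other genes so arranged. The 32 factor genes with no such neighbour had 9 (28.1%), against 16.3% of other genes. Only 3 of 16 TSS peaks at factor genes lay in the window of another protein-coding gene as well (18.8%). Among other genes 41.0% of the pairs of peak and gene did. When each peak was given only to the gene with the nearest TSS, 14 factor genes (26.9%) and 17.2% of other genes had one.

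Peaks lay close to the starts of factor genes. Of the 16 TSS peaks, 13 had the summit within 150 bp of a TSS (81.3%), against 57.6% of the pairs among other genes, and 12 lay upstream (75.0%, against 76.1%). None of these 16 summits lay in coding sequence, where 1.09% of the pairs among other genes lay. The other 8 peaks at factor genes were in gene bodies, and none of these summits was in coding sequence either. The median distance to the TSS was 76 bp at factor genes and 128 bp at other genes.

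Summit sequences are shown for 4 of the 5 peaks that held the DREF word TATCGATA or the M1BP word GGTCACAC, the words whose shares in summit windows were highest relative to those at other TSS peaks. This choice was made after the values were seen, and the differences were not tested. Each window was read from the Release 6 genome (the dm6 build), written 5′ to 3′ on the strand of the gene, with the word in capitals on whichever strand it occurred. At eEF1gamma the window is chr3R:29220064-29220164 on the + strand, at eIF1 chr3L:3222964-3223064 on the + strand, and at eIF3a chr3R:4433869-4433967 on the - strand. The eIF3a stretch is 99 bases long, trimmed at one end so that it holds no more than 30 bases of UTR. At eIF2A, 30 bases at chr3L:21824902-21824931 on the + strand are given, within the 5′ UTR, and its capitals mark the M1BP word read on the opposite strand; the DREF word of that window lies outside these bases.
eEF1gamma: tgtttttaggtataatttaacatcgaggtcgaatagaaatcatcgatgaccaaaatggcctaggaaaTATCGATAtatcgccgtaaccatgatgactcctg
eIF1: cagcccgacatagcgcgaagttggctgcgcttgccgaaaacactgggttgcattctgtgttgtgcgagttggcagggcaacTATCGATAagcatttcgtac
eIF3a: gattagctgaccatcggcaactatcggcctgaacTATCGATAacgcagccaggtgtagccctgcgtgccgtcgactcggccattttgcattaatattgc
eIF2A: cgtGTGTGACCaattcaagcacgaaatcgt

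The DREF word occurred in 4 of the 16 summit windows at factor genes, which reach 50 bp to each side of the summit (25%, interval 10.2 to 49.5), those of eEF1gamma, eIF1, eIF2A and eIF3a. Of 2823 windows at other TSS peaks, 1.98% held it. The replicates' own lists gave 3 of 13 windows (23.1%, against 2.42%) and 3 of 16 windows (18.8%, against 1.59%). In promoters, taken from 250 bp before to 50 bp after the start, it occurred in 14 of 52 factor genes (26.9%) and in 9.29% of other genes. It was in 30.4% of cytosolic ribosomal protein promoters, 20.5% of mitochondrial ribosomal protein promoters and 14.3% of aminoacyl-tRNA synthetase promoters. The higher share was therefore not particular to factor genes. The promoters of factor genes with the word were bound as often as those without, at 4 of 14 (28.6%) and 11 of 38 (28.9%). Both eIF1 and eIF2A, whose summit windows held the word, are counted among the 38 without it. The eIF2A promoter as taken did not cover the start beside its summit, and the eIF1 summit was nearer to RpL28. These shares therefore do not describe the word at the summit. Among other genes these shares were 29.0% and 20.6%. The word is palindromic, so both strands give the same matches, and it overlaps none of the other words searched.

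The M1BP word stood in 2 of the 16 summit windows (12.5%, against 1.28%), those of eIF2A and eIF3k, and in 11.5% of factor promoters (7.67% of others). In the replicates' lists it stood in 2 of 13 windows (15.4%, against 1.12%) and in 1 of 16 (6.25%, against 1.45%). The eIF2A window held both words. The ETS core GGAA, the shortest form of the sequence that ETS proteins recognise, was in 7 of 16 windows (43.8%) and in 50.1% of windows at other TSS peaks. In promoters it was as common at factor genes (90.4%) as at others (88.0%). The longer ETS word CCGGAAGT, which contains that core, was in none of the 16 windows or 52 promoters, and in 0.177% and 0.381% of the others. The TATA box word TATAAAA was in no summit window (7.33% of others) and in 23.1% of promoters (24.2% of others), and the GAGA factor word GAGAG was in 18.8% of windows (19.3%) and 15.4% of promoters (29.7%). In the list of replicate 1 GAGAG was in 7.69% of windows (15.1% of others). All words were searched on both strands, and a match describes the sequence only. The median GC content of the windows was 44.6% at factor genes and 40.6% at other TSS peaks, and its part in these shares was not tested.

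**Figure D2:**
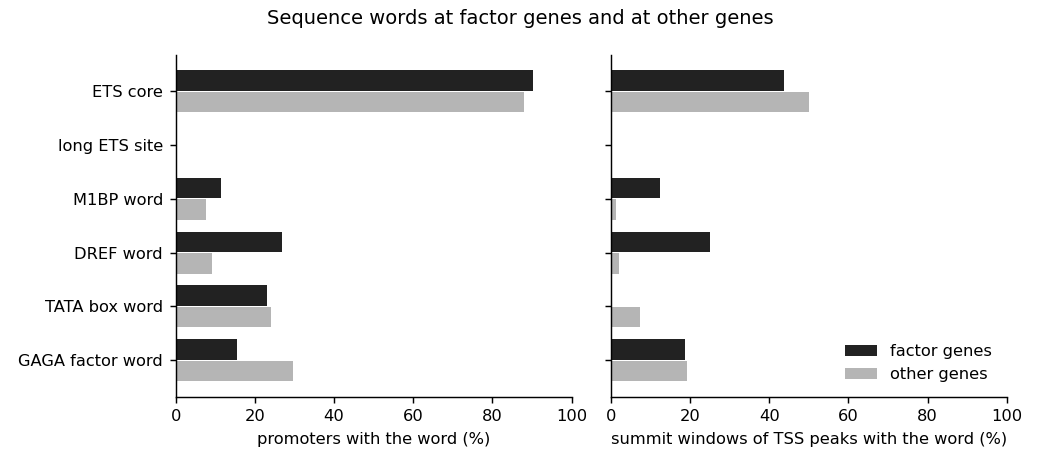
Percent of promoters (left) and of summit windows of TSS peaks (right) that hold each of 6 sequence words, for factor genes (dark) and other protein-coding genes (light). The DREF word was in 26.9% of factor promoters and 25% of factor windows, against 9.29% and 1.98% of the others, while the ETS core was similar in both.

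Windows with the ETS core or with none of these words are shown next for contrast. The summit at eIF3h, at chr2L:5052453-5052553 on the - strand, and that at eEF1alpha2, at chr3R:31739197-31739297 on the + strand, held the core, marked in capitals on either strand. The window of eIF4H1, at chrX:16448966-16449066 on the + strand, held none of the 6 words and ran into a TG repeat.
eIF3h: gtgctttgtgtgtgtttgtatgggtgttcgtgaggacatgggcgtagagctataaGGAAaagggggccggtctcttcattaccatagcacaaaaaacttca
eEF1alpha2: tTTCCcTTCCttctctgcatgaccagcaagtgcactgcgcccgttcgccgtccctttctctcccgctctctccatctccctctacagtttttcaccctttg
eIF4H1: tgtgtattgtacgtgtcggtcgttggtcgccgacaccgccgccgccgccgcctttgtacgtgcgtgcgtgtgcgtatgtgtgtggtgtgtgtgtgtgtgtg

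The TCT initiator was defined as TCTTTC or as TCTTTT, or either of them with C for the first T, with the second base within 5 bp of a TSS on the transcribed strand. It was found at 6 factor genes (11.5%), against 2.09% of other genes and 59.8% of cytosolic ribosomal protein genes. At all 6 the second base lay 4 or 5 bp from the annotated TSS, near the limit allowed. Of these 6, eEF2 and eEF5 had a conservative TSS peak, and eIF3f1, eIF3i, eIF3m and eIF4A had none. In the replicates' own lists, 3 of the 6 had a TSS peak in replicate 1 and 1 in replicate 2. Among other genes 39.2% of those with the initiator and 21.0% of those without were bound. The starts of 4 of the 6 factor genes are shown with the initiator in capitals. They lie at chr2L:21682097-21682136 on the - strand (eEF2), chr3R:4714163-4714202 on the - strand (eIF3f1), chr2L:4967756-4967795 on the - strand (eIF3i) and chr2L:5981744-5981783 on the + strand (eIF4A).
eEF2: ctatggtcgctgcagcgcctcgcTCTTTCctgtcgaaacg
eIF3f1: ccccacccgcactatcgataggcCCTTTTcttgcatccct
eIF3i: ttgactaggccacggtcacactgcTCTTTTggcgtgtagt
eIF4A: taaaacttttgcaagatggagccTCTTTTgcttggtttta

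Peaks at factor genes were of ordinary strength except for that of eIF6. The strongest TSS peak of each bound factor gene had a median signal of 174 in the conservative list, at a median percentile of 67.1 among all its peaks, against 143 and 56.0 for other bound genes. In replicate 1 the medians were 91.2 for factor genes and 77.5 for other genes. In replicate 2 they were 75.3 and 76.1, so that the higher signal was not seen there.

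**Figure D3:**
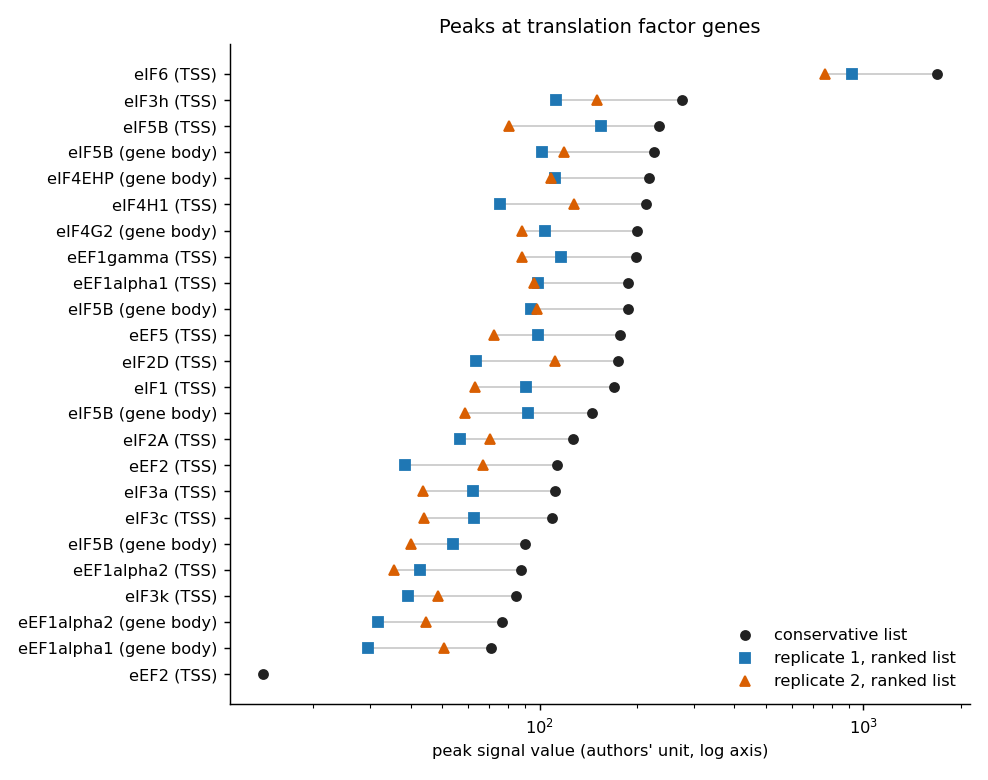
Signal value (authors' unit, log axis) of the 24 conservative peaks at factor genes, with the value of the matching summit within 100 bp in each replicate's ranked list. Most values in the conservative list lie between 70.6 and 276, eIF6 stands at 1686, and the weakest peak, the second at eEF2 with 14.0, has no replicate match.

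The strongest peak at any factor gene was that at eIF6. The gene eIF6 (FBgn0034915), whose product holds the large subunit apart from the small one, had a peak of signal 1686 at chr2R:23850246-23850554, ranked 16 of 7157. Its summit lay 117 bp upstream of the only TSS, within an intron of ytr and an exon of the antisense RNA asRNA:CR45928. The replicates gave 923 and 762, and both values were in the top 0.1% of their ranked lists.

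The GTPase gene eIF5B (FBgn0026259), which acts in subunit joining, held 5 peaks, more than any other factor gene. The one at its TSS, 96 bp upstream of one start, had signal 234, with 155 in replicate 1 and 80.2 in replicate 2. The other four lay in introns, with signals of 225, 187, 145 and 90.1, at 27714, 20258, 25466 and 16162 bp from the nearest TSS of the gene. For the 3 strongest of these, sty had the nearest start of a protein-coding gene, 7954 to 15410 bp away. Its product, sprouty, inhibits receptor tyrosine kinase signalling. The gene eIF5B is 32320 bp long, and the weakest of its 5 peaks was absent from the thresholded list of replicate 2. No conservative peak was found near eIF5, which activates GTP hydrolysis by eIF2; its nearest summit was 97499 bp away.

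The genes eIF2D and eIF2A, whose products can bind initiator tRNA outside the eIF2 route, each had a conservative TSS peak. At eIF2D (FBgn0041588) the summit lay 98 bp upstream, with signal 174 and replicate values of 63.4 and 112. At eIF2A (FBgn0037135) it lay 63 bp upstream of one start, with signal 127 and replicate values of 57.0 and 70.4. Both were in both replicates' own lists.

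The GTPase complex eIF2, which carries initiator tRNA, and its exchange factor eIF2B had no conservative TSS peak at any of 3 and 5 subunit genes. With 21.4% of other genes bound, these counts are too small to set them apart from eIF2A and eIF2D. The difference was not tested. Of the replicates' own lists, only that of replicate 2 held a thresholded peak at eIF2Bdelta and eIF2Bgamma, at percentiles 84.2 and 88.5 of its ranked list. In the ranked list of replicate 1 their summits stood at percentiles 55.7 and 65.9. The authors' other thresholded series-level list, also made from both replicates, held a TSS peak at eIF2Bgamma but not at eIF2Bdelta. The summit nearest to eIF2Bbeta, 682 bp upstream, belonged to a peak of signal 3211 that lay 37 bp from a start of Ugalt, a UDP-galactose transporter gene. That of eIF2alpha was the eIF4H1 peak, 2023 bp away. The distances were 2475 bp for eIF2beta, 11956 bp for eIF2gamma, 13919 bp for eIF2Bepsilon and 37055 bp for eIF2Balpha. The ranked series-level list includes peaks below the threshold. It held a TSS summit at 2 of 3 eIF2 and 4 of 5 eIF2B genes, against 47.6% of other protein-coding genes. These counts are small, and the difference was not tested.

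Of the factors that open the start codon search, eIF1 (FBgn0035423) had a peak and eIF1A had none. The eIF1 summit, in chr3L:3222960-3223059, had signal 169.6, with 91.2 in replicate 1 and 63.4 in replicate 2. It lay 327 bp upstream of eIF1 and 54 bp from a start of the ribosomal protein gene RpL28, to which it is nearer. The nearest summit to eIF1A was 22931 bp away.

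The eIF3 complex, the scaffold that binds the small subunit, was bound at 4 of its 16 genes, eIF3a, eIF3c, eIF3h and eIF3k, a share (25%) near the background. Replicate 1 listed 3 eIF3 genes and replicate 2 listed 2. At eIF3h (FBgn0022023) the signal was 276, with 112 and 150.4 in the replicates, and the summit lay in an intron 277 bp downstream of a start, in a window shared with senju. The peak at eIF3a (FBgn0037249), 22 bp upstream and shared with CG1074, had signal 112 and replicate values of 62.3 and 43.7.

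At eIF3c (FBgn0034258) the summit lay 3 bp downstream of a start, with signal 109 and replicate values of 62.6 and 44.1. At eIF3k (FBgn0034654) it lay 2 bp upstream, with the lowest signal among the strongest TSS peaks, 84.6, and replicate values of 39.2 and 48.4. Neither eIF3a nor eIF3k reached the threshold in a replicate's own list, where their scores were 618 to 813. A thresholded peak at eIF3m appeared in replicate 1 only (signal 42.5). No conservative TSS peak was found for eIF3b, eIF3d1, eIF3d2, eIF3e, eIF3f1, eIF3f2, eIF3g1, eIF3g2, eIF3i, eIF3j, eIF3l and eIF3m, whose nearest summits lay between 1290 and 80304 bp from a TSS.

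Among the helicase eIF4A and its helpers, eIF4H1 (FBgn0262734) had a conservative peak and eIF4A, eIF4B and eIF4H2 had none. Peaks of passing score at eIF4A that were absent from the conservative list are described below. The eIF4H1 summit lay in an intron, 136 bp upstream of one of its starts, with signal 214 and replicate values of 75.7 and 128. The nearest conservative summits to eIF4A and eIF4H2 were 6433 and 11519 bp away. On arm 3L, eIF4B was the factor gene farthest from any peak, with the nearest summit 4912941 bp away. The stretch between held no conservative summit at any gene, so the absence is not particular to eIF4B.

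None of the 7 genes of the cap-binding eIF4E family had a conservative TSS peak. With 21.4% of other genes bound, this count is too small to set the family apart, and the difference was not tested. Of the replicates' own lists, only that of replicate 2 held eIF4E1 (percentile 88.0 of its ranked list, and 57.6 in that of replicate 1). The other thresholded series-level list held a TSS peak at eIF4E1 as well. In eIF4EHP (FBgn0053100), whose product binds the cap but represses translation, a peak of signal 217 lay in an intron 9800 bp from the TSS, with replicate values of 111 and 109. A peak at the eIF4EHP start reached the score of the conservative list but was absent from it, as described below. For eIF4E3, eIF4E4, eIF4E5, eIF4E6 and eIF4E7 the nearest summits were 7202 to 37832 bp away. For the scaffold gene eIF4G1 the nearest lay 96543 bp away. It is on chromosome 4, where only 2.53% of the 79 other genes had a conservative TSS peak. The intronic peak described next is on another arm. Its relative eIF4G2 (FBgn0260634), needed in flies for male meiosis, had an intronic peak of signal 200.4 at 1029 bp, with replicate values of 104 and 88.1, within introns of CG33111 and CG34355 as well.

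Elongation factor peaks lay at eEF1alpha1, eEF1alpha2, eEF1gamma, eEF2 and eEF5. The tRNA-delivering GTPase gene eEF1alpha1 (FBgn0284245) had signal 188 at 19 bp downstream of a start, with replicate values of 98.7 and 96.3, at percentiles 94.8 and 94.7 of the ranked lists. A second peak of signal 70.6 lay in its intron. Its paralogue eEF1alpha2 (FBgn0000557) had the weaker signal of 87.7 at 413 bp upstream of a start, the farthest from a TSS among the TSS peaks and inside the gene, with replicate values of 42.7 and 35.6. Neither replicate's own list held it above the threshold. A second peak of eEF1alpha2, of signal 76.8, lay in an intron 1816 bp from a TSS. How reads that match both copies were placed was not stated in the labels.

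At eEF1gamma (FBgn0029176), a subunit of the exchange factor for eEF1alpha, signal was 199 at 58 bp upstream, with replicate values of 116 and 88.5. The other subunit genes, eEF1beta and eEF1delta, had their nearest summits 29654 and 31469 bp away. The peak nearest to eEF1delta was that at RpL7.

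The translocase gene eEF2 (FBgn0000559) had signal 114 at 81 bp downstream of a start, with replicate values of 38.4 and 67.0. A second listed peak, 71 bp upstream, had a signal of 14.0 and no matching summit in either replicate. At eEF5 (FBgn0285952), whose hypusine-bearing product helps ribosomes past stalls, the summit lay 14 bp upstream with signal 177. Its replicate values were 98.9 and 72.2, and only replicate 1 listed it above the threshold. The selenocysteine tRNA factor gene eEFSec had its nearest summit 23635 bp away.

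**Figure D4:**
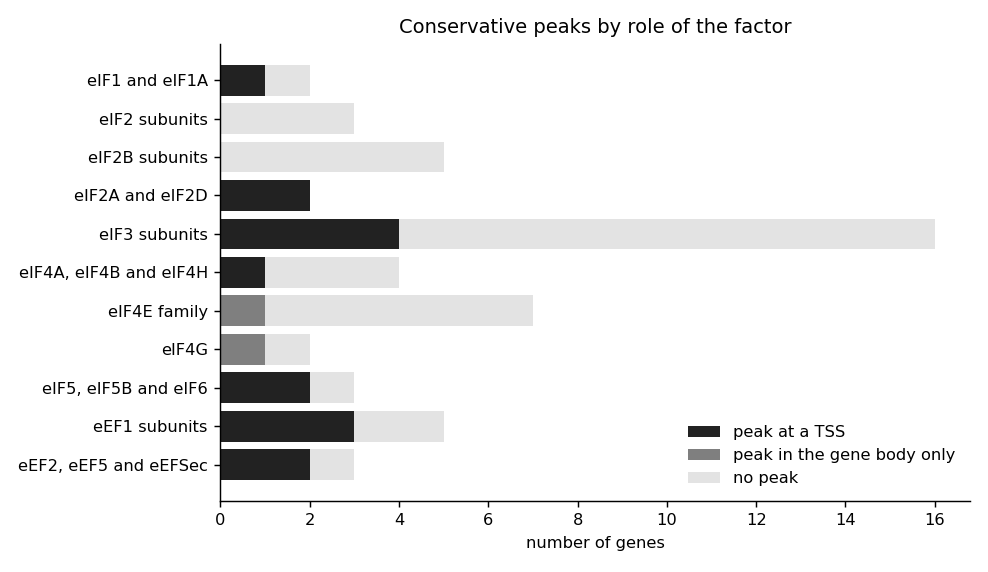
Number of factor genes in each role group with a conservative peak at a TSS (black), in the gene body only (grey) or neither (light). Counts range from 0 of 5 eIF2B genes to 4 of 16 eIF3 genes and 3 of 5 eEF1 genes.

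Where a factor has numbered copies, a peak stood at 2 of 7 copies numbered 1 (eEF1alpha1 and eIF4H1) and at 1 of 11 higher copies (eEF1alpha2). Neither replicate's own list placed a TSS peak at any of those 11. With 21.4% of other genes bound, these counts are too small to set the copies apart, and the difference was not tested. The values just inside the 500 bp limit were those of eEF1alpha2 (413 bp) and eIF1 (327 bp), and just outside were eIF2Bbeta (682 bp) and eIF2Bdelta (754 bp). In all, 18 of the 37 genes with no TSS peak had their nearest summit over 10000 bp away, and the median was 9406 bp. No such values for other genes are given beside these, so the distances describe the factor genes only.

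**Figure D5:**
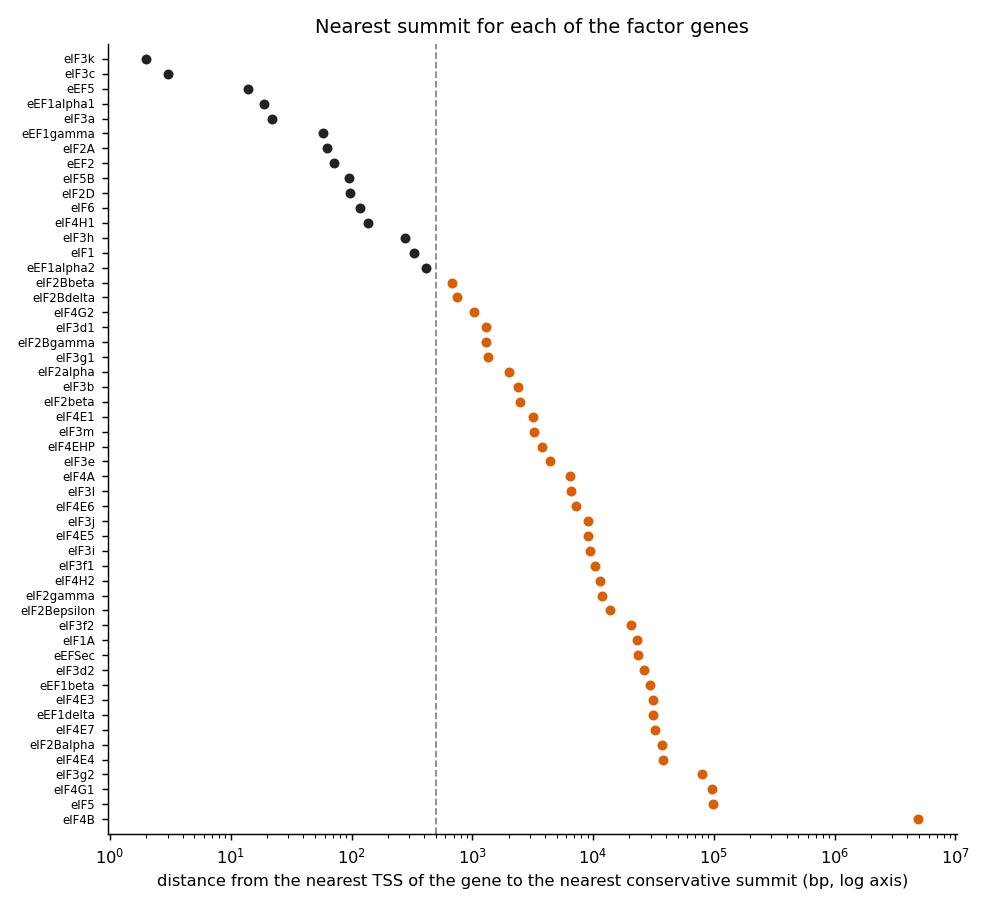
Distance in bp (log axis) from the nearest TSS of each of the 52 factor genes to the nearest conservative summit. The dashed line is the 500 bp limit; the 15 genes inside it lie at 2 to 413 bp, and the rest run from 682 to 4912941 bp.

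Of 16 factor genes with a thresholded TSS peak in either replicate's own list, 11 were in both, 2 in replicate 1 only and 3 in replicate 2 only. Of the 15 with a conservative TSS peak, 11 had one in both replicates' own lists (73.3%, against 67.8% of other bound genes). The conservative list was itself made from both replicates, so this share does not measure their agreement independently. The 11 were eEF1alpha1, eEF1gamma, eEF2, eIF1, eIF2A, eIF2D, eIF3c, eIF3h, eIF4H1, eIF5B and eIF6. Below the threshold, 14 of the 37 genes without a TSS peak had a summit there in the ranked series-level list (37.8%, against 33.3% of other such genes). Of the 37, 18 had none in any ranked list, a count given without the share of other genes.

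Peaks at both eIF4EHP and eIF4A reached the score of the conservative list and were nevertheless absent from it. Of the ranked series-level peaks, 174 on the main arms were so, removed by a step of which no description was found. The peak at the eIF4EHP start, 261 bp upstream and shared with CG18428, had a signal of 811 and a score of 1000, which would lie at percentile 98.1 of the conservative list. Its replicate values were 382 and 419, both with a score of 1000, and the window at its summit had a GC content of 12.9%. At eIF4A the ranked list held 2 such peaks, of signal 69.0 and 40.6, at 38 bp upstream of a start and 269 bp downstream. The replicate values of the first were 31.4 and 60.3. For the second they were 35.5 and 38.1. With all such peaks kept, 17 factor genes (32.7%) and 21.9% of other genes would have a TSS peak. A removed peak was the only one at a TSS for 2 of 37 factor genes (5.41%) and 66 of 10936 other genes (0.604%).

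Other genes of translation, listed by name, were bound at a TSS in 14 of 36 cases (38.9%, interval 24.8 to 55.1), against 21.4% of all protein-coding genes outside the factor genes. There were 10 in replicate 1 and 13 in replicate 2, where the background was 17.8% and 23.8%. The subgroups below are small, and their differences from these shares were not tested. The regulators of initiation had 7 of 17. These were crc (signal 178), the fly ATF4; mTor (177), the growth kinase; Rack1 (142), a small subunit protein; NAT1 (124), an eIF4G relative; pAbp (123), the poly(A)-binding protein; Thor (122), the 4E-binding protein that restrains eIF4E; and S6k (71.8), which phosphorylates a ribosomal protein. Termination and recycling had 2 of 5, the release factor gene eRF3 (132) and the rescue factor gene HBS1 (89.0). The enzymes that modify elongation factors had 3 of 5. Dph1 (462) and Dph2 (122) act in diphthamide synthesis on eEF2, and Dhps (120.1) in hypusine synthesis on eEF5. All of these 3 were also in both replicates' own lists. Mitochondrial factors had 2 of 9, mIF2 (149.97) and mEFTu2 (81.6). Of the other bound genes named here, crc, mTor, Rack1 and mIF2 were in both replicates' own lists. Thor, pAbp, S6k and eRF3 were in that of replicate 2 only, and NAT1 and HBS1 in that of replicate 1 only. The peak at mEFTu2 was in neither.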

How the data were processed

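Both samples were grouped and numbered as replicates by the labels. The authors deposited peak lists on dm6, per the labels; aligner and caller were not given in the sources used here. These deposited columns were used: the signal of a peak, in an unnamed unit, and its score, a scaled irreproducible discovery rate. Depth was unknown, as the lists hold no read totals. The authors' conservative list was used, with the other series-level list, each replicate's thresholded list and the ranked lists beside it. In the ranked series-level list, 8 columns of per-replicate values were left out, since no label assigns them.

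Genes and starts came from Ensembl 115, and sequence from the RefSeq Release 6 assembly. All 52 factor genes matched the RefSeq gene table by symbol. Replicate values are those of the ranked summit within 100 bp. Counts and shares were computed in Python 3.11.15 with Wilson intervals from scipy 1.17.1, after the counting had been tested on simulated data. No test was run, because the design holds 1 group. Every factor gene was named or counted, with bound genes given in full. The genes, lists and words were chosen with earlier results of these data known. Of 37 further translation genes listed, 36 matched. Alternatives covered peak list, replicate, threshold, window and gene mix.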

Additional observations from a re-analysis of the deposited data

How the results depend on the processing

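The share of factor genes with a TSS peak stayed above that of other genes in every list and window tried, but its size moved. It was 36.5% in the other series-level list, 17.3% with the 3578 strongest conservative peaks, 55.8% with all ranked peaks, 23.1% with a 250 bp window and 32.7% with a 1000 bp window. It was also 32.7% with the removed peaks of passing score kept, and 25% to 26.9% with 1 replicate left out. With gene bodies it was 40.4%, 21.2% and 63.5% in the same first 3 settings, 42.3% with bodies extended by 1000 bp, and 28.8% to 32.7% with 1 replicate left out. The difference from other genes, 7.43 percentage points, became 11.3 in the other series-level list, 10.8 with the removed peaks kept, and 3.11 (replicate 2 alone) to 7.20 (replicate 1 alone). It was 6.11 and 9.48 after standardising to the factor genes' mix of TSS number and of gene length. Length and the removed peaks were chosen as alternatives after seeing the data. The median percentile of signal became 56.7, 46.5 and 83.5 in those 3 settings, and 55.2 to 65.0 with 1 replicate left out. By role, single replicates gave 0 to 40% for eIF2B, 12.5% to 18.8% for eIF3, 0 to 14.3% for the eIF4E family and 33.3% to 66.7% for eEF2, eEF5 and eEFSec. Summit windows in place of promoters gave 43.8% for GGAA and 0 for TATAAAA. The cause of these shifts was not tested. No paired analysis was possible because both samples belong to 1 group. Unknown depth limits every statement on genes without a peak.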
